A study of Mus musculus with 6 samples.

Results

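The genes described here are 39 mouse genes of the motile cilium, given as a list: the transcription factors that switch the ciliary gene programme on, the parts of the beating axoneme, intraflagellar transport proteins and other genes of ciliated cells. They were measured in whole lungs of control and Foxa2-/- mice, and a gene was taken through the array probe sets annotated to it alone, the brightest of which stood for the gene. By that rule 38 of the 39 were measured, out of 18193 genes. Sntn has no array value here and enters only the promoter counts below.

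The study compared 3 control lung samples with 3 Foxa2-/- samples at postnatal day 15, each hybridised as total RNA to 1 Affymetrix array. The submitters describe the controls as littermates, with the genotype wildtype. Both groups carry the same strain label, SPC(+)Cre(-), and the same doxycycline exposure, embryonic day 6.5 to 12.5. Values are log2 signals, so a difference of 1 is a doubling. All differences below are Foxa2-/- minus control, tested with limma over all genes with Benjamini-Hochberg adjusted p-values, where a value under 0.05 passes.

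SPC is the usual short name of the surfactant protein C promoter. In mouse lines of this kind that promoter makes the doxycycline response specific to the embryonic lung epithelium, so cells in which it was not active keep Foxa2. A strain label that reads Cre(-) for the Foxa2-/- samples conflicts with their genotype label, so the targeted gene was read first. Foxa2 measured 10.28, 10.56 and 10.28 in control replicates 1 to 3 and 7.72, 5.38 and 5.13 in Foxa2-/- replicates 1 to 3. Every Foxa2-/- array lay below every control array, and Foxa2-/- replicate 1 kept more signal than the other two. The difference was -4.30 (SE 0.66, limma adjusted p = 0.0599, 3 arrays a group), which just missed the threshold.

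The labels do not say that each array came from a separate animal, so p-values cover the variation among these arrays only, and some of it may be technical. Array medians ran from 7.85 to 7.91 and correlations between arrays from 0.972 to 0.992. Pairs with Foxa2-/- replicate 1 were the lowest (0.972 to 0.978), also those within its own group (0.976 and 0.977). Foxa2-/- replicates 2 and 3 correlated with the controls at 0.979 to 0.988. Control replicate 2 and Foxa2-/- replicates 2 and 3 share the first number of their titles, whose meaning is not given. The Gapdh probe sets at the 3′ and 5′ ends of the transcript differed by 1.06 to 1.23 in the controls and by 0.91 to 0.97 in the Foxa2-/- samples, and the part of this in any result was not tested.

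Motile cilia are the beating, hair-like projections with which airway cells move mucus. Their core, the axoneme, is a ring of microtubule doublets around a central pair. Dynein arms on the doublets slide them against each other, radial spokes and the central apparatus coordinate the sliding, and intraflagellar transport carries building blocks to the tip. In multiciliated cells FOXJ1, a forkhead protein as FOXA2 is, and the RFX factors turn on most of these genes, RFX proteins by binding a motif called the X-box.

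Promoter windows show which members carry letters that these factors are known to read. Windows of 300 bases, from 250 before to 50 after a transcription start, were taken from RefSeq (build GRCm38.p6) and were there for 31 of the 39 members. They are not printed for Foxj1, Ift81, Rsph1, Armc4, Lrrc6, Tppp3, Rsph4a and Nme5. The RFX core hexamer GTTGCC, searched on both strands, was present in 18 of 31 members (58.1%), against 14.1% of the 27025 genes in the table. A strict form of the X-box, GTTNCC and GGNAAC with exactly 2 bases between them, was in 0 of 31 members and in 0.529% of all genes. Looser forms with another spacing or other letters were not searched, so this count does not show how many members hold an X-box. The forkhead site TGTTTAC was in 3 of 31 members (9.68%) against 4.05% of all genes, and its shorter core TGTTTA, which lies inside it, in 9 of 31 (29.0%) against 15.1%. A match says only that the letters are there. The stretches below lie before the start and are printed 5′ to 3′ along each gene's own strand. They were chosen to show the RFX hexamer in a regulator (Rfx2), in a central apparatus gene (Spag16), in a dynein gene whose difference was positive (Tctex1d1), in a dynein gene with little difference (Dynlrb2) and in a transport gene (Ift57), and the forkhead site in Mlf1. Capitals mark 1 motif in each stretch, which for Tctex1d1 is on the opposite strand and so reads as the reverse complement. The stretches of Spag16, Ift57 and Mlf1 hold a further RFX hexamer in lower case, that of Spag16 on the opposite strand.
Rfx2, chr17:56831089-56831154, minus strand: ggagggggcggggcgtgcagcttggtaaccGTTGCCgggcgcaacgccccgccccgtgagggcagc
Spag16, chr1:69826837-69826902, plus strand: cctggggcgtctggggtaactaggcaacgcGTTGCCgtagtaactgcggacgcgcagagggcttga
Tctex1d1, chr4:102978527-102978592, plus strand: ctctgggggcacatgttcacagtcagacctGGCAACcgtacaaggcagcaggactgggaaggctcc
Dynlrb2, chr8:116504934-116504999, plus strand: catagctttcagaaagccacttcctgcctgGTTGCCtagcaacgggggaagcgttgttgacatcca
Ift57, chr16:49699204-49699269, plus strand: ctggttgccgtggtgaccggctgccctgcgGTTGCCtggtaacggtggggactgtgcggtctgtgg
Mlf1, chr3:67373951-67374017, plus strand: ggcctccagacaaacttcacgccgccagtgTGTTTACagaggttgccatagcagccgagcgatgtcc

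In these stretches the first capital lies 116 bases before the start of Rfx2, 103 before that of Spag16, 146 before that of Tctex1d1, 51 before that of Dynlrb2, 60 before that of Ift57 and 116 before that of Mlf1. Members with and without the RFX hexamer were close in their array differences: the median was -0.31 over the 17 measured members with it and -0.22 over the 13 without.

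None of the 38 motile cilium genes passed the test, and their differences were mostly negative and under 1 in size. Limma called 0 of 38, with adjusted p-values from 0.161 to 0.993, where 0.572% of all genes were called (104 of 18193). Without adjustment, 11 members had a p under 0.05, 9 of them lower and 2 higher in Foxa2-/-. That is 28.9% of the members, where 12.3% of all genes had such a p, 5.07% lower and 7.28% higher. The difference was negative in 29 members and positive in 9, where 49.2% of all genes were negative. The median was -0.27 where the median over all genes was 0.01. Equalising the arrays by cyclic loess gave 30 negative and 8 positive.

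Arrays of the groups overlapped for 25 members. Every Foxa2-/- array lay below every control array for 11 members and above for 2, where 8.73% and 10.8% of all genes were so separated. In size, 36 differences were under 1 and 2 were 1 or more, where 3.40% of all genes had a difference of 1 or more. The median size, sign left aside, was 0.32 over the members and 0.16 over all genes. The 95% interval lay wholly within a doubling or halving for 25 members (65.8%), against 81.6% of all genes, so for the other 13 a change of that size in 1 direction lies inside the interval. In whole lung RNA, fewer ciliated cells and less ciliary RNA per cell cannot be told apart.

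**Figure D1:**
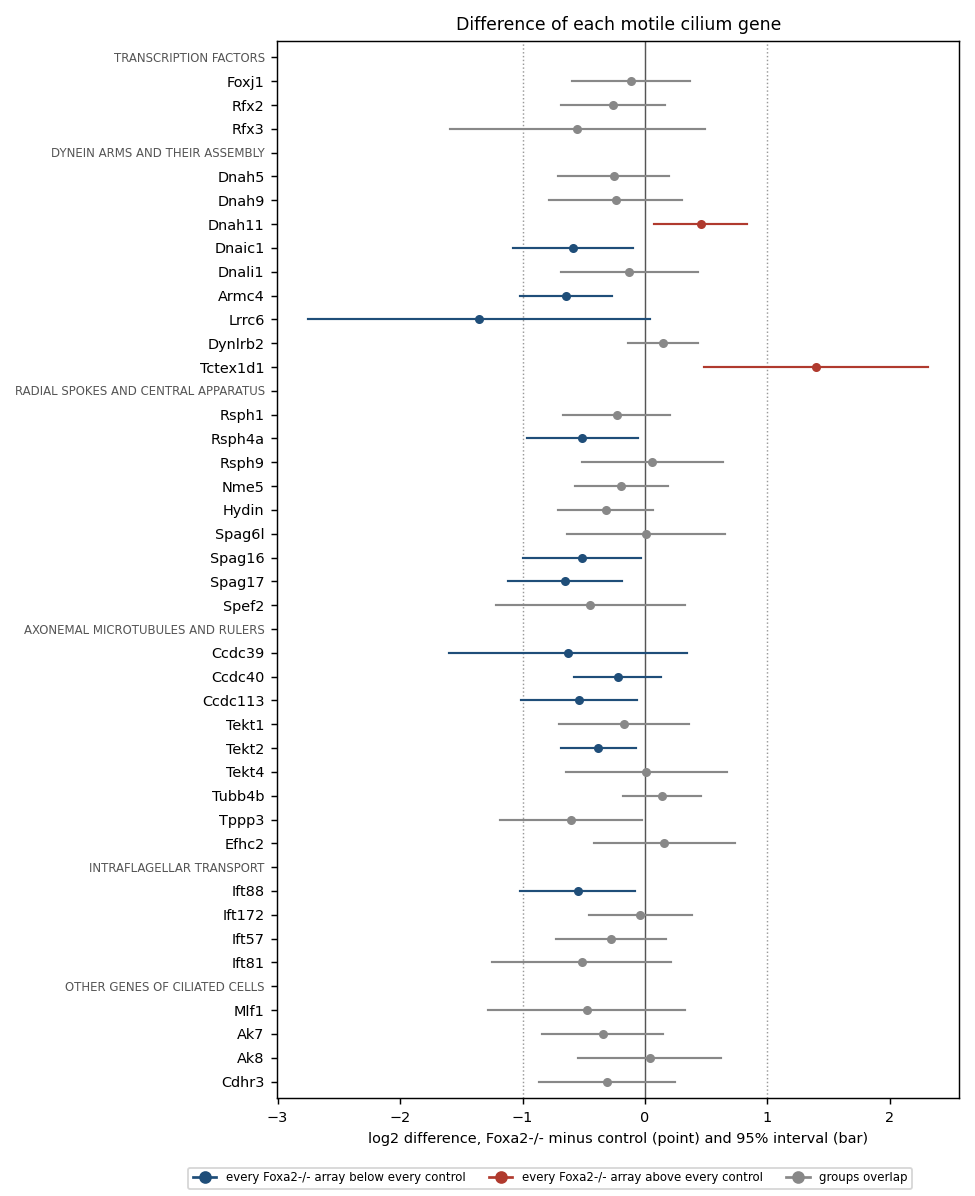
Log2 difference of each measured motile cilium gene (x axis, Foxa2-/- minus control, 3 arrays a group), with genes grouped by role on the y axis. Points are limma estimates and bars their 95% intervals, dotted lines mark a difference of 1 either way, and colour marks the 11 genes with every Foxa2-/- array below every control, the 2 with every one above and the 25 that overlap.

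Markers of ciliated cells were measured above the floor of the signal. Of 12 markers of ciliated cells, 11 were measured, and their means over the 6 arrays ran from 6.26 (Dnah5) to 12.60 (Tppp3). All 11 means lay above the 25th percentile of signal on every array, which was at most 5.78. Of all 18193 genes, 3277 had a mean below that percentile on every array, so most genes were not dim by that mark. It therefore does not measure how much signal came from ciliated cells. By group means, dim signal was limited to 3 members, Spag17 and Efhc2 in both groups and Tctex1d1 in the controls, whose differences near the floor can be compressed. Lrrc6 was dim on 1 array, Foxa2-/- replicate 1.

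The 3 transcription factors of the list did not pass the test. Foxj1, the forkhead factor without which motile cilia do not form, measured 8.37, 7.94 and 7.64 in the controls and 8.03, 7.80 and 7.78 in the Foxa2-/- samples. The Foxa2-/- arrays lay inside the control range. The difference was -0.11 (limma 95% interval -0.60 to 0.37, adjusted p = 0.849), and it was 0.081 without control replicate 1, the highest control.

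Rfx2, which works with FOXJ1 on ciliary genes, measured 8.85, 8.72 and 8.89 in the controls and 8.93, 8.44 and 8.33 in the Foxa2-/- samples. Replicate 1 of the Foxa2-/- group was the highest of all 6 arrays and the other two the lowest, so the groups overlapped (difference -0.26, limma adjusted p = 0.619; -0.44 without Foxa2-/- replicate 1 and -0.14 without replicate 3). Rfx3, an RFX factor of both motile and non-motile cilia, measured 10.67, 10.96 and 11.05 in the controls and 9.29, 10.99 and 10.74 in the Foxa2-/- samples. Its difference of -0.55 (limma adjusted p = 0.666) rested on Foxa2-/- replicate 1, without which it was -0.028, and the dimmer probe set of Rfx3 gave 0.09.

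**Figure D2:**
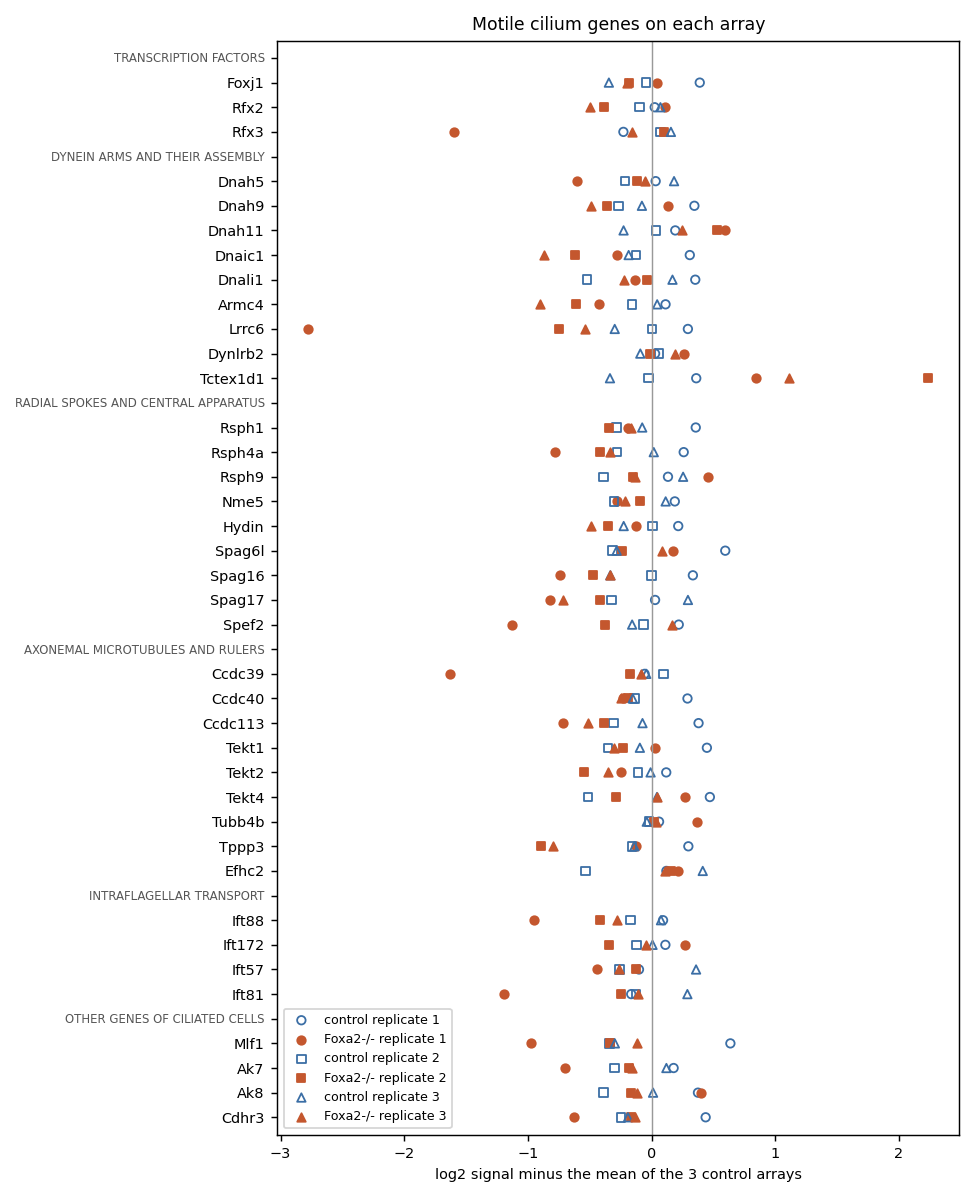
Log2 signal of the motile cilium genes on each array minus the gene's control mean (x axis), with genes by role on the y axis; open blue points are control replicates 1 to 3 and filled points Foxa2-/- replicates 1 to 3. Control replicate 1 is the highest control for 28 of 38 genes, and Lrrc6, Rfx3 and Ccdc39 stand low on Foxa2-/- replicate 1.

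Among the 9 dynein arm and assembly genes, 6 differences were negative and 3 positive, and the list's lowest adjusted p was here. Armc4, which helps to dock the outer dynein arms, measured 7.41, 7.14 and 7.34 in the controls and 6.87, 6.68 and 6.40 in the Foxa2-/- samples. The groups did not overlap. Its difference was -0.65 (SE 0.16, limma 95% interval -1.02 to -0.27, adjusted p = 0.161), 1.57-fold more signal in the controls. It passed only when limma weighted the arrays by quality (-0.72, adjusted p = 0.0430).

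Lrrc6, a factor needed to assemble dynein arms in the cytoplasm, measured 8.37, 8.08 and 7.78 in the controls and 5.30, 7.33 and 7.54 in the Foxa2-/- samples. All Foxa2-/- arrays lay below the controls, replicate 1 by far the most, where the signal was under that array's 25th percentile (5.78). The difference was -1.35 (SE 0.58, limma adjusted p = 0.418), and -0.64 without Foxa2-/- replicate 1 (limma adjusted p = 0.208). A second probe set gave -0.93, again with replicate 1 lowest.

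Tctex1d1, a dynein light chain of the Tctex family, had the largest positive difference of the list. It measured 5.36, 4.98 and 4.67 in the controls and 5.85, 7.24 and 6.11 in the Foxa2-/- samples. All Foxa2-/- arrays lay above the controls, which were near the floor of the signal. The difference was 1.40 (SE 0.38, limma 95% interval 0.48 to 2.31, adjusted p = 0.203).

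A pair of further dynein genes had groups that did not overlap. Dnaic1, an intermediate chain of the outer arm, measured 8.47, 8.04 and 7.98 in the controls and 7.89, 7.55 and 7.30 in the Foxa2-/- samples (difference -0.59, limma adjusted p = 0.314). Dnah11, an outer arm heavy chain, measured 9.32, 9.16 and 8.90 in the controls and 9.72, 9.66 and 9.37 in the Foxa2-/- samples (difference 0.46, limma adjusted p = 0.315). Neither of the 2 passed, so no direction is drawn from their opposite signs. The heavy chains Dnah5 (-0.26) and Dnah9 (-0.24), the inner arm light chain Dnali1 (-0.13) and the light chain Dynlrb2 (0.15) had overlapping groups.

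The 9 radial spoke and central apparatus genes had differences from -0.65 to 0.06, with 7 negative. Spag17, a central apparatus protein, measured 5.05, 4.69 and 5.31 in the controls and 4.20, 4.60 and 4.30 in the Foxa2-/- samples. The groups did not overlap, but the signal was dim (difference -0.65, SE 0.19, limma adjusted p = 0.238), and a dimmer probe set gave -0.10. Spag16, another central apparatus protein, measured 7.37, 7.04 and 6.71 in the controls and 6.30, 6.57 and 6.70 in the Foxa2-/- samples. The groups were separated by less than the spread within either of them (difference -0.51, limma adjusted p = 0.371), and its 3 other probe sets gave -0.13 to 0.15.

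Rsph4a, a protein of the radial spoke head, measured 9.10, 8.56 and 8.86 in the controls and 8.06, 8.43 and 8.51 in the Foxa2-/- samples. Every Foxa2-/- array was below every control, the closest by little (difference -0.51, limma adjusted p = 0.346). The other spoke head genes, Rsph1 (-0.23) and Rsph9 (0.06), and Nme5 (-0.19), a spoke component, overlapped between groups. So did the central apparatus genes Hydin (-0.32), Spag6l (0.01) and Spef2 (-0.45).

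The 9 genes of axonemal microtubules and their spacing had differences from -0.63 to 0.16, with 6 negative. Ccdc39, part of the ruler that sets the axonemal repeat, measured 10.90, 11.05 and 10.91 in the controls and 9.32, 10.78 and 10.87 in the Foxa2-/- samples. Only Foxa2-/- replicate 1 lay far from the controls, and without it the difference of -0.63 (limma adjusted p = 0.596) was -0.13. Its other probe sets gave -1.01 and 0.17. Ccdc40, the partner of CCDC39 in that ruler, had no such low array: its difference was -0.22, with all Foxa2-/- arrays below the controls, the closest by little. Without control replicate 1, its highest control, the difference of Ccdc40 was -0.079.

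Tppp3, a tubulin-binding protein abundant in ciliated cells, measured 13.20, 12.75 and 12.77 in the controls and 12.78, 12.01 and 12.11 in the Foxa2-/- samples. The highest Foxa2-/- array lay among the controls, and the other two lay well below (difference -0.60, limma adjusted p = 0.385). Ccdc113, a protein of ciliated cells that binds near the axoneme's spokes and basal bodies, measured 9.43, 8.74 and 8.97 in the controls and 8.33, 8.66 and 8.53 in the Foxa2-/- samples. Its groups did not overlap (difference -0.54, limma adjusted p = 0.343), and the difference was -0.35 without control replicate 1.

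The tektins, filament proteins inside the doublets, did not pass and were not tested against each other. Tekt2 (-0.38) had all Foxa2-/- arrays below the controls, while Tekt1 (-0.17) and Tekt4 (0.01) overlapped. The tubulin gene Tubb4b (0.14) and Efhc2 (0.16) overlapped too.

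All 4 intraflagellar transport members had negative differences, and 1 had groups that did not overlap. Ift88, a core protein of the IFT-B complex, measured 8.77, 8.51 and 8.76 in the controls and 7.73, 8.26 and 8.40 in the Foxa2-/- samples (difference -0.55, limma adjusted p = 0.329). Its Foxa2-/- arrays all lay below the controls, replicate 1 the lowest, without which the difference was -0.35.

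Ift81, which binds tubulin in IFT-B, measured 9.68, 9.72 and 10.13 in the controls and 8.65, 9.60 and 9.73 in the Foxa2-/- samples (difference -0.52, limma adjusted p = 0.564). Ift57, another IFT-B protein, measured 9.92, 9.76 and 10.38 in the controls and 9.58, 9.89 and 9.76 in the Foxa2-/- samples (difference -0.28, limma adjusted p = 0.613). For both genes the groups overlapped, and Ift81 had 1 low array, Foxa2-/- replicate 1, as Rfx3 and Ccdc39 did. Without it the difference of Ift81 was -0.18, and that of Ift57 was -0.099 without control replicate 3, its highest array. Ift172 differed by -0.04.

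The remaining ciliated cell genes had the same replicate, control replicate 1, as their highest control in 4 of 4 cases. Mlf1, expressed strongly in ciliated cells, measured 9.29, 8.31 and 8.36 in the controls and 7.68, 8.32 and 8.54 in the Foxa2-/- samples (difference -0.47, limma adjusted p = 0.629). Ak7, an adenylate kinase of motile cilia, measured 11.48, 10.9999 and 11.42 in the controls and 10.60, 11.12 and 11.14 in the Foxa2-/- samples (difference -0.35, limma adjusted p = 0.566). Cdhr3, a cadherin of ciliated airway cells, measured 10.44, 9.76 and 9.81 in the controls and 9.38, 9.83 and 9.87 in the Foxa2-/- samples (difference -0.31, limma adjusted p = 0.652).

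In these 3 genes Foxa2-/- replicate 1 was the lowest array and the other Foxa2-/- arrays lay inside the control range. Without that array the differences were -0.22 for Mlf1, -0.17 for Ak7 and -0.15 for Cdhr3, and without control replicate 1 those of Mlf1 and Cdhr3 were -0.16 and -0.091. Ak8, a second adenylate kinase, differed by 0.04.

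The median difference of the members stayed negative under each alternative tried, from -0.38 to -0.048, while its size depended on which arrays were set against each other. At -0.048, within the shared title number, 20 of 38 members were negative, where 52.9% of all genes were. Over the members, control replicate 1 was the highest control for 28 of 38 genes (73.7%), against 33.6% of all genes. The median member signal was 9.13, 8.53 and 8.84 in control replicates 1 to 3 and 8.48, 8.43 and 8.53 in Foxa2-/- replicates 1 to 3, so control replicate 2 lay at the level of the Foxa2-/- arrays. Foxa2-/- replicate 1 was the lowest of its group for 17 members (44.7%), against 31.7% of all genes. It lay more than 1 below the mean of the other Foxa2-/- arrays for 5 members (13.2%), Rfx3, Lrrc6, Spef2, Ccdc39 and Ift81, against 6.35% of all genes.

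Over the arrays with the shared title number, 1 control and 2 Foxa2-/-, the median member difference was -0.048, with 20 negative and 18 positive, and 9 members had another sign than with all 6 arrays. The median over all genes there was -0.02. Lrrc6, Tppp3, Dnaic1 and Armc4 kept negative values within that number, at -0.65, -0.69, -0.62 and -0.60, and Dnah11 (0.35) and Tctex1d1 (1.70) positive ones. Every other array had a title number of its own. The title number as a fixed block therefore gave the same estimates, from 1 control and 2 Foxa2-/- arrays, and its p-values are not given. The median over the members was -0.18 without control replicate 1, with 25 negative and 13 positive. It was -0.19 without Foxa2-/- replicate 1, with 33 negative and 5 positive, and -0.38 without control replicate 2, with 34 negative and 4 positive. Array weights gave -0.24, with 33 negative and 5 positive. In these 4 settings, in that order, 47.4%, 54.0%, 50.1% and 53.9% of all genes were negative.

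**Figure D3:**
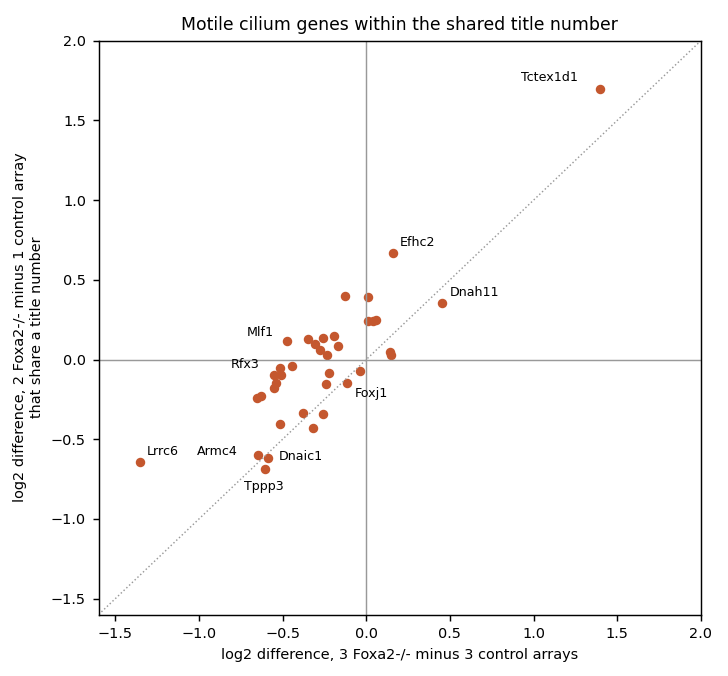
Log2 difference of each motile cilium gene over all 6 arrays (x axis) against the difference over the 3 arrays that share a title number (y axis, 2 Foxa2-/- minus 1 control); the dotted line marks equal values. Most points lie above the line, with 20 of 38 still negative on the y axis, while Lrrc6, Armc4, Dnaic1 and Tppp3 stay low on both axes.

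Other probe sets of the members gave no calls either. Of 63 single-gene probe sets, 45 had a negative difference, and limma over all 45037 probe sets called 0 of the 63, where 0.0999% of all probe sets were called. Of the 14 members with several probe sets, 6 had one of the opposite sign to that used: Ccdc39, Hydin, Rfx2, Rfx3, Spag16 and Tubb4b.

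Other genes of cilia, on 4 lists that hold none of the members, were read in the same fit. Of 157 measured genes limma called 0, where 0.572% of all genes were called, and 21 had an unadjusted p under 0.05, 20 of them lower and 1 higher. That is 13.4% of these genes, where 12.3% of all genes had such a p, 5.07% lower and 7.28% higher. Differences were negative in 121 and positive in 36, with a median of -0.19, which was -0.091 without control replicate 1, with 104 of 157 negative. All Foxa2-/- arrays lay below all controls for 37 and above for 5, where 8.73% and 10.8% of all genes did. Over the arrays with the shared title number the median was -0.086, with 97 of 157 negative, where 52.9% of all genes were.

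**Figure D4:**
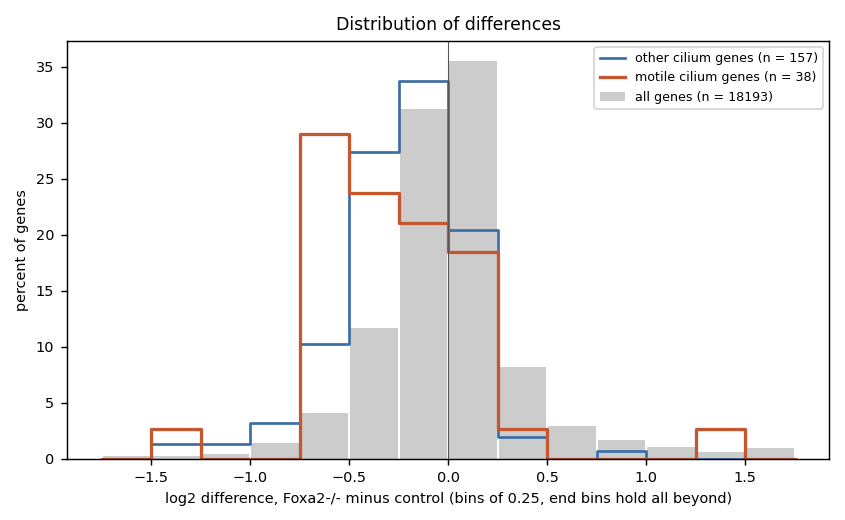
Percent of genes (y axis) by log2 difference (x axis, Foxa2-/- minus control, in bins of 0.25) for all 18193 genes (grey), the 38 motile cilium genes (orange) and 157 other cilium genes (blue). The medians are 0.01 for all genes, -0.27 for motile cilium genes and -0.19 for other cilium genes, and 36 of the 38 lie within 1 of 0.

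The list nearest to the threshold was that of other intraflagellar transport and BBSome genes, the BBSome being the complex that moves membrane proteins in cilia of most cell types. Of its 35 measured genes, 32 had negative differences and 16 had every Foxa2-/- array below every control, as 8.73% of all genes had. The median was -0.25 and stayed at -0.24 within the shared title number. Ttc8, a BBSome subunit also called Bbs8, measured 9.32, 9.28 and 9.21 in the controls and 8.06, 8.62 and 8.39 in the Foxa2-/- samples (difference -0.91, limma adjusted p = 0.0795).

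Dync2h1, the motor of return transport from the tip, measured 8.39, 8.41 and 8.41 in the controls and 7.71, 7.88 and 7.87 in the Foxa2-/- samples (difference -0.59, limma adjusted p = 0.0795). For both genes every Foxa2-/- array lay clear of the controls, and neither passed. Most of these genes also serve the single non-motile cilium of other lung cells, so they are not specific to ciliated cells.

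Among 23 other axonemal dynein genes, 18 differences were negative and the median was -0.18. The smallest p-values belonged to Dnal1, an outer arm light chain (-0.35, limma adjusted p = 0.251), and Dnah2, an inner arm heavy chain (-0.71, limma adjusted p = 0.342). Both had every Foxa2-/- array below every control. With the mean of each gene's probe sets the differences were -0.18 for Dnal1 and -0.27 for Dnah2. Among 85 other axonemal and ciliated cell genes, 63 were negative, with a median of -0.20 over all arrays and 0.03 within the shared title number. Iqcg, a protein of the axonemal regulatory complex, measured 9.08, 8.84 and 9.04 in the controls and 7.07, 8.44 and 7.54 in the Foxa2-/- samples (difference -1.30, limma adjusted p = 0.178). Spa17, a protein of cilia and sperm tails, had a difference of -0.54 (limma adjusted p = 0.226).

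The 15 measured regulators of the multiciliated cell programme had a median of -0.05, with 9 negative and 6 positive. Cdk1, which is foremost a kinase of dividing cells, had a difference of 0.89 (limma adjusted p = 0.399), and E2f5, which acts with the multiciliation regulators, one of -0.42 (limma adjusted p = 0.550). Both had groups that did not overlap, and both rested in part on 1 array: Cdk1 differed by 0.47 without control replicate 3 and E2f5 by -0.15 without Foxa2-/- replicate 1.

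Lists of neighbouring airway cells were read in the same fit, in which 0.572% of all genes were called. Of 14 club cell genes, markers of the secretory cell that ciliated cells stand next to, 1 fell: Gsta3, a glutathione transferase, measured 10.99, 10.68 and 10.90 in the controls and 9.67, 9.39 and 9.92 in the Foxa2-/- samples (difference -1.20, limma adjusted p = 0.0499). The others did not pass, among them Hp (-0.50, limma adjusted p = 0.163), and the list's median was -0.23, near the -0.27 of the motile cilium genes. Of 14 goblet cell genes 1 rose, Slc26a4, an anion exchanger, by 5.59 (limma adjusted p = 0.0222), with a list median of 1.19. Agr2, which folds mucins, differed by 2.16 and did not pass (limma adjusted p = 0.0795). The call of Gsta3 was lost whichever array was left out (-1.33 to -1.06, limma adjusted p from 0.0610 to 0.201), with cyclic loess (limma adjusted p = 0.0573) and with the mean of the gene's probe sets (limma adjusted p = 0.0559). That of Slc26a4 was lost without control replicate 1 or 2 or Foxa2-/- replicate 2 or 3 (5.18 to 6.12 over all 6 omissions, limma adjusted p from 0.0267 to 0.138). With the title number as a fixed block, which sets 1 control against 2 Foxa2-/- arrays, the differences were -1.03 for Gsta3 and 6.57 for Slc26a4.

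Of 16 leukocyte genes, 6 rose and 0 fell, where 0.572% of all genes were called, with a list median of 0.74, and the median list signal was 11.2 to 11.6 in the controls and 12.2 to 12.4 in the Foxa2-/- samples. Prg2, an eosinophil granule protein, rose by 3.50 (limma adjusted p = 0.0152) and Cd68, a macrophage marker, by 1.45 (limma adjusted p = 0.0198). Both calls were lost without control replicate 1 or 2 or Foxa2-/- replicate 2 or 3, that of Cd68 also without control replicate 3, with values of 3.30 to 3.71 (limma adjusted p from 0.0138 to 0.104) and 1.36 to 1.53 (limma adjusted p from 0.0206 to 0.138). With the title number as a fixed block, 1 control against 2 Foxa2-/- arrays, the differences were 3.67 for Prg2 and 1.60 for Cd68. Over all 6 arrays the median member signal ranged from 8.53 to 9.13 in the controls and from 8.43 to 8.53 in the Foxa2-/- samples. The part of these cell types in the values of the motile cilium genes was not tested.

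**Figure D5:**
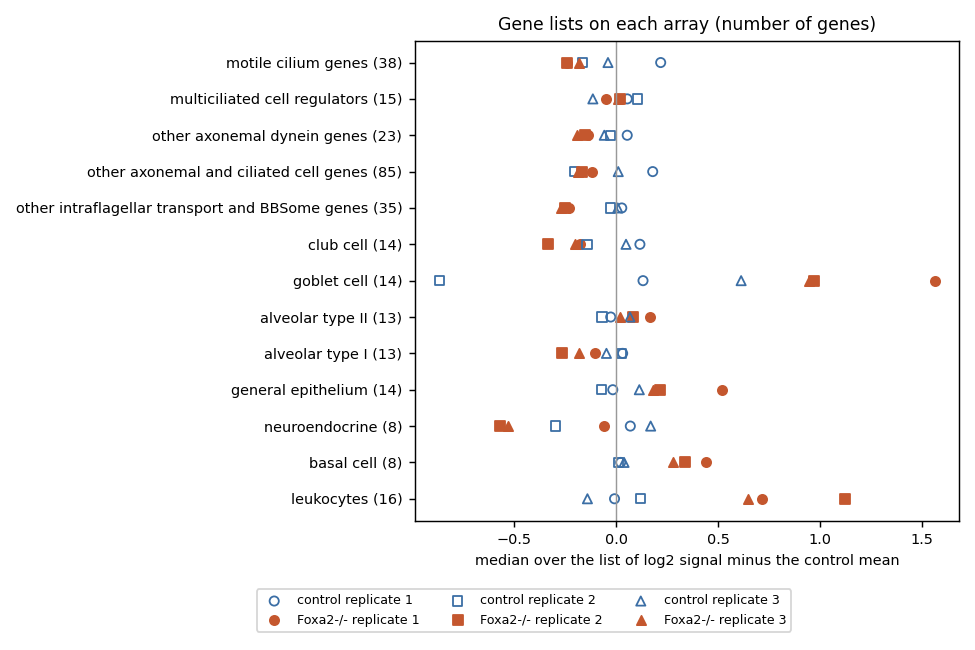
Median over each gene list (y axis, with the number of genes) of log2 signal minus the control mean (x axis), 1 point per array. For motile cilium genes the 3 Foxa2-/- points lie next to control replicate 2, whereas for leukocyte genes they lie 0.65 to 1.12 above the control mean with all controls near 0.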

How the data were processed

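Total RNA of whole lungs was measured on 6 Affymetrix arrays, 3 control and 3 Foxa2-/-, grouped by the genotype label. The deposited values are log2 signals that the authors made with RMA, per the submitters' processing notes; its version is unstated in the sources used here. RMA equalises arrays, so a shift of most genes at once would not be seen. After leaving out 64 control probe sets, 45037 were tested. Symbols came from the platform annotation, and 34945 probe sets had 1 symbol, 932 several and 9160 are unnamed here.

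Groups were compared with limma 3.58.1 and statmod 1.5.0 in R 4.3.3 (lmFit and eBayes, two-sided, no covariate, no filter), adjusting over 18193 genes with the Benjamini-Hochberg method. The fit was tested on simulated data. Replicate numbers follow accession order and pair nothing. The number of arrays limits the precision.

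The members and lists were chosen with earlier results of these data known. Values in every sample are given for Foxj1, Rfx2, Rfx3, Foxa2 and the 3 members of each role with the largest differences; in other cilium lists and lists of neighbouring cells, the 2 genes with the smallest p are named. Dnaic1 and Dnah11 were added after their values were seen. Alternatives were centring, cyclic loess, signal filters, trend and robust moderation, array weights, the title number as a block, leaving out each array, mean probe sets and an adjusted p under 0.1.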

Additional observations from a re-analysis of the deposited data

How the results depend on the processing

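No member was called under any alternative tried except array weights, which called 1 (Armc4). Other cilium genes numbered 3 calls with array weights, 2 with a random block for the title number and 2 at an adjusted p under 0.1. Over all genes the count of 104 was 48 with cyclic loess, 52 among genes above the median signal, 607 with array weights, 0 with the title number as a fixed block (2121 had an unadjusted limma p under 0.05), 399 as a random block, 320 at an adjusted p under 0.1, and 0 to 249 when 1 array was left out: 0 without control replicate 1, control replicate 2 or Foxa2-/- replicate 3, 19 without control replicate 3, 7 without Foxa2-/- replicate 2 and 249 without Foxa2-/- replicate 1.

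The median member difference was -0.048 with the title number as a fixed block, and equally within the shared number, and -0.38 to -0.18 with 1 array left out. Foxa2 passed with trend and robust moderation (-4.30), array weights (-4.95), a random block (-4.64) and at an adjusted p under 0.1 (-4.30), and ranged from -5.12 (passing, without Foxa2-/- replicate 1) to -3.83 with 1 array left out. Without control replicate 1 the difference reversed for Foxj1 (0.081, range from -0.29), Dnali1 (0.047), Tekt1 (0.055) and Ift172 (0.016), and without Foxa2-/- replicate 1 for Tekt4 (-0.12), Rsph9 (-0.14), Ak8 (-0.15) and Spag6l (-0.074). It reversed with the title number as a fixed block or within it for Ift57 (0.061), Mlf1 (0.12), Ak7 (0.13), Cdhr3 (0.096), Dnah5 (0.13), Dnali1 (0.40), Rsph1 (0.027), Nme5 (0.15) and Tekt1 (0.087). The sign also changed for 5 members without control replicate 2, 4 with array weights and 2 without Foxa2-/- replicate 3. It changed for 1 member each without control replicate 3, without Foxa2-/- replicate 2, with cyclic loess and with a random block. The cause was not tested.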

Other observations

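Lists of other lung cells gave these values on the same arrays, all with limma adjusted p-values over all genes, where 12.3% of all genes had an unadjusted p under 0.05. Of 13 alveolar type II genes none passed (3 had an unadjusted p under 0.05) and the median difference was 0.06, with Sftpd, a collectin of surfactant, at 0.68 (adjusted p = 0.0719) and Il33, an alarmin, at 1.05 (adjusted p = 0.116). Of 13 alveolar type I genes none passed (5 had an unadjusted p under 0.05), with a median of -0.16, Igfbp2 at -2.18 (adjusted p = 0.109) and Rtkn2 at -0.52 (adjusted p = 0.302). General epithelial genes had a median of 0.31, with Elf3, an epithelial transcription factor, at 0.82 and Krt8 at 0.55, and 0 of 14 passed (4 had an unadjusted p under 0.05).

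Neuroendocrine genes had a median of -0.40, with Resp18 at -0.72 and Ddc, which makes serotonin and dopamine, at -0.52, and 0 of 8 passed (2 had an unadjusted limma p under 0.05). Basal cell genes had a median of 0.24, with Aqp3, a water channel, at 1.52 and Krt17 at 0.78, and 0 of 8 passed (3 had an unadjusted limma p under 0.05). With the mean of each gene's probe sets the differences were -0.26 for Ddc and 0.43 for Krt17. Those of Resp18 and Aqp3 were then -0.72 and 1.34.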
